A study of Mus musculus with 8 samples.

Results

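Chemokines are small secreted proteins that set the paths along which leukocytes migrate, and their receptors are G protein-coupled receptors on the migrating cells. The genes described here are all 59 genes of the deposited table, among 22155, whose symbol marks a CC or CXC chemokine (Ccl, Cxcl) or receptor (Ccr, Cxcr), together with Cx3cl1, Cx3cr1, Xcl1, Xcr1, Pf4 and Ppbp. They comprised 41 ligands and 18 receptors. Transcript levels were measured by RNA sequencing of whole mouse liver in 8 libraries, 2 in each of 4 labelled groups. Yap1 knockout livers had received an AAV8 virus carrying iCre, which deletes floxed Yap1 in hepatocytes, and Yap control livers were Yap1 floxed homozygotes that had received AAV8 carrying GFP. The livers labelled Ctgf knockout were conditional knockouts whose Cre driver the sources used here do not give, and Ctgf controls were Ctgf floxed homozygotes, for which the labels name no virus. All groups were C57BL/6 adults of 8 to 10 weeks and all carried the same injury. They drank a Lieber-DeCarli diet with 1% ethanol for 2 days and with 2% ethanol for 10 days, and a single injection of carbon tetrachloride (1 µl per g) preceded liver removal by 2 days. No uninjured group was analysed here, so every difference is one between injured livers.

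In injured liver, dying hepatocytes, resident macrophages (Kupffer cells), stellate cells and endothelium release chemokines that draw in blood leukocytes. CXC chemokines with a Glu-Leu-Arg sequence act on Cxcr2 and Cxcr1 and are known for drawing neutrophils. The CC chemokines Ccl2, Ccl7 and Ccl12 act on Ccr2 and draw monocytes, and the interferon-induced Cxcl9, Cxcl10 and Cxcl11 act on Cxcr3 of T and NK cells. The GENCODE annotation of GRCm38 lists Cxcl11 as a polymorphic pseudogene, and whether it made a working protein in these mice was not measured. Pf4 and Ppbp are stored in the granules of platelets. Yap1 encodes a transcriptional coactivator restrained by the Hippo pathway, and Ctgf, a known YAP target, encodes a secreted matrix-associated protein.

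Several libraries differed in ways the groups do not explain. Total counts ran from 26904021 to 33488609, and the summed hepatocyte marker level from 55853 to 98714 CPM (counts relative to the library's size, scaled by the TMM method). Yap control 2 stood apart from the other libraries on the second principal component, and its 10 exocrine pancreas genes summed to 10970 CPM, against 3.13 to 7.48 CPM in the others. Yap1 stood at 31.0 and 32.5 CPM in Yap1 knockouts and at 107 and 76.1 CPM in Yap controls (edgeR adjusted p = 0.0557). Ctgf stood at 8.02 and 49.2 CPM in the libraries labelled Ctgf knockout 1 and 2, against 28.8 and 32.1 CPM in Ctgf controls. The second library labelled knockout thus goes against its label. In the Yap line Ctgf stood higher in the knockouts, at 406 and 324 CPM against 96.8 and 50.1 CPM in Yap controls (log2 fold change 2.31, edgeR adjusted p = 0.250). Whether replicates are separate animals is not stated in the labels, so p-values measure the spread between these libraries, which may be technical.

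The members that stood furthest above control in Yap1 knockout liver include Cxcl2, Cxcl3 and Ppbp, which lie side by side with Cxcl5, Pf4, Cxcl15 and Cxcl1 in a cluster on chromosome 5 (GRCm38 chr5:90759360-90905938). Upstream sequences of 5 of these genes are shown because neighbours in the cluster differed in level between the groups. Each is the 100 bases before the RefSeq start on GRCm38.p6, plus strand, 5′ to 3′. Capitals mark matches, on either strand, to GGGNNTTTC, the first 9 bases of a form of the site bound by NF-kB, a transcription factor that induces many chemokines in inflammation.
Cxcl2 (chr5:90903799-90903898): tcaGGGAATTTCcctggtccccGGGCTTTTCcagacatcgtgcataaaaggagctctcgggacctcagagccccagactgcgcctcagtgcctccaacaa
Cxcl3 (chr5:90786001-90786100): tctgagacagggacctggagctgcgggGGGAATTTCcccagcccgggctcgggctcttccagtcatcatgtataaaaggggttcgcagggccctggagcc
Cxcl1 (chr5:90891145-90891244): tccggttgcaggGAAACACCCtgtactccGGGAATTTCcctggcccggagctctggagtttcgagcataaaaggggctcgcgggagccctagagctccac
Ppbp (chr5:90768418-90768517): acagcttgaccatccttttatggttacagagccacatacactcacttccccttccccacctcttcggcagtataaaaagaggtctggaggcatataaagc
Pf4 (chr5:90772335-90772434): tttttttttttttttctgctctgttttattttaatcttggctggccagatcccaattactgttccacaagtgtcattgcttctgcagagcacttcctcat
The Cxcl2 and Cxcl1 stretches each hold 2 matches and the Cxcl3 stretch 1, and the Ppbp and Pf4 stretches hold none of these letters. A RefSeq upstream sequence was found for 43 of the 59 members. Within the 250 bases before the start, 12 of them (27.9%: Ccl20, Ccl27b, Ccl9, Ccr3, Cxcl1, Cxcl2, Cxcl3, Cxcl9, Cxcr2, Cxcr3, Cxcr4 and Xcl1) hold a match, against 1175 of 27025 genes (4.35%). With a further C after the motif, the form searched first, the counts were 6 members (13.95%: Ccl20, Ccl9, Ccr3, Cxcl1, Cxcl2 and Cxcl3) and 447 genes (1.65%). A match describes the letters and no binding was measured. The genes with a match did not share a direction in these livers, as the values of Cxcl1, Cxcl2 and Cxcl9 show.

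All 59 members are accounted for as follows. The low-count filter kept 42 members, 29 ligands and 13 receptors, for testing. A further 12 had some counts but fell below the filter, namely the ligands Ccl1, Ccl8, Ccl17, Ccl19, Ccl20, Ccl21a and Xcl1 and the receptors Ccr4, Ccr6, Ccr8, Ccr10 and Xcr1. No count was listed for Ccl21b, Ccl21c, Ccl26, Ccl27b and Cxcl15. Near-identical copies of the Ccl21 and Ccl27 genes make their counts uncertain. Members took 0.119% and 0.116% of all counts in Yap1 knockouts and 0.132% and 0.101% in Yap controls. In the Ctgf line the share was 0.0626% and 0.0713% in labelled knockouts, against 0.0757% and 0.0741% in controls. The share was thus higher in the 4 libraries of the Yap line than in the 4 of the Ctgf line, with no overlap. Abundant members weigh most in it, and it does not describe every member. Ccl6 and Ccl9 gave 7924 and 3855 of the 27133 member counts in Yap control 2, and 2293 and 1640 of 23441 in Ctgf control 1.

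Per kilobase of exon, Ccl6 and Ccl9, macrophage chemokines of the CC family, had the highest levels over all 8 libraries, at 97.6 and 33.5 CPM per kb. The stromal chemokine Cxcl12, which retains Cxcr4-bearing cells, followed at 31.2 CPM per kb, and the neutrophil chemokine Cxcl1 at 28.3 CPM per kb. The monocyte chemokines Ccl2 and Ccl7 stood at 26.3 and 19.99 CPM per kb and Pf4 at 19.6 CPM per kb. Receptors were lower. Over all libraries Ccr1, the receptor of Ccl3, Ccl5, Ccl6 and Ccl9 on myeloid cells, led them at 9.02 CPM per kb, before Cxcr2 at 5.43, Cxcr4 at 4.84 and Ccr2 at 3.65 CPM per kb. In the Ctgf line Cxcr4 lay above Ccr1, at 3.37 against 2.00 CPM per kb in labelled knockouts, and likewise in the controls, where Ccr1 averaged 3.09 CPM per kb. Cxcr3 stood at 0.220 CPM per kb, Cxcr6 at 0.288 and the B cell receptor Cxcr5 at 0.0848 CPM per kb.

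The order of levels differed between the lines. In Yap1 knockouts the 3 highest members per kb were Ccl6 (143.6 CPM per kb), Ccl9 (52.9) and Pf4 (49.6), and in Yap controls Ccl6 (160.8), Ccl9 (49.8) and Ccl2 (49.4). In the libraries labelled Ctgf knockout they were Cxcl1 (45.04 CPM per kb), Ccl6 (37.8) and Cxcl12 (35.5), and in Ctgf controls Ccl6 (48.3), Cxcl1 (43.4) and Cxcl12 (29.8). These are means of 2 libraries, and in the Ctgf controls Ccl6 and Cxcl1 did not differ beyond the spread of their libraries. Cxcl1 stood there at 108 and 54.5 CPM, while the labelled knockouts held 68.4 and 101 CPM, so the groups overlapped.

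**Figure D1:**
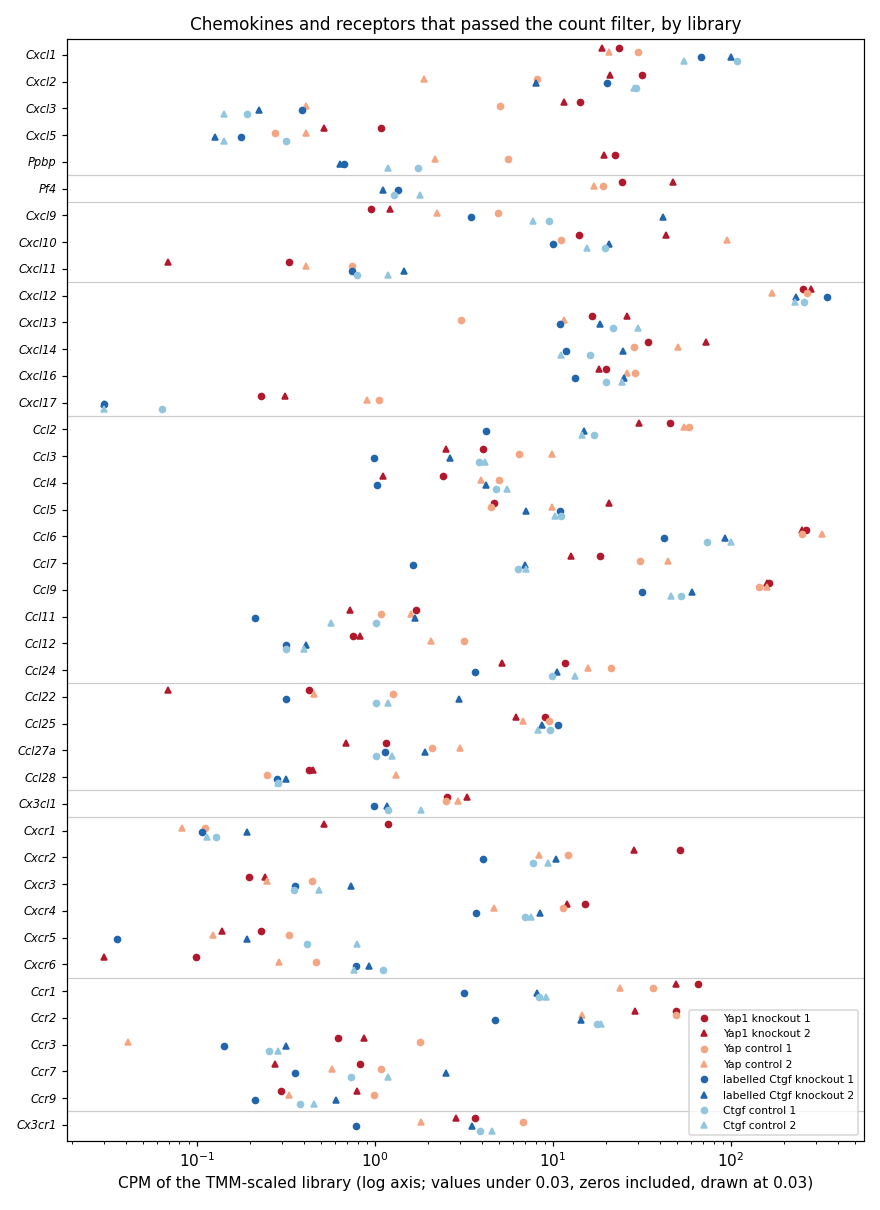
Level of tested members in each of the 8 libraries, as CPM on a log axis, with members in rows grouped by class (thin lines). Circles are replicate 1 and triangles replicate 2 of Yap1 knockouts, Yap controls, libraries labelled Ctgf knockout and Ctgf controls. Ccl6, Ccl9 and Pf4 lie apart between the Yap and Ctgf lines, while Cxcl12 lies between 169 and 348 CPM in all libraries.

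The first comparison asked how deletion of hepatocyte Yap1 changed the injured liver. The 5 members with the highest log2 fold changes were the neutrophil receptors Cxcr1 and Cxcr2 and the ligands Ppbp, Cxcl2 and Cxcl3, none of which passed the adjusted threshold. Cxcl2 stood 5.17-fold, Cxcl3 4.66-fold, Ppbp 5.32-fold, Cxcr2 3.89-fold and Cxcr1 8.38-fold above control, and Ccl12 3.28-fold and Ccl3 2.49-fold below it. By edgeR's quasi-likelihood test 0 of the 42 members passed an adjusted p under 0.05, where 4 of 13999 genes did (0.0286%). At an unadjusted p under 0.05 there were 12 members (28.6%), against 13.8% of all genes tested. Of these, 7 were higher (16.7%, against 6.64% of genes), and 5 were lower (11.9%, against 7.14% of genes). Cxcr1 among the higher and Cxcl17 among the lower passed the low-count filter only through the group where each was high.

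Counting libraries alone, both knockout libraries lay above both controls for 11 members (26.2%, against 23.6% of all genes tested) and below both for 14 (33.3%, against 20.8%). The median log2 fold change of the 42 members was -0.28, against -0.00 over all genes, with 16 members above 0 (38.1%, against 49.6% of genes). DESeq2 called 3 members, Cxcl2, Cxcr2 and Ppbp, all higher, where it called 558 genes (3.17%), and limma-voom called none, where it called 0.0357% of genes. With Yap control 1 left out 7 members passed (Cxcl2, Cxcl3, Cxcr2, Ppbp and Ccr3 higher, Ccl27a and Ccl28 lower), where 25.8% of all genes did and Yap control 2, with its pancreatic transcripts, was the sole control. Without both Yap control 2 and the library labelled Ctgf knockout 2, 6 members passed, where 6.58% of genes did.

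Cxcl2, the chemokine known as MIP-2 that draws neutrophils through Cxcr2, stood at 31.9 and 20.9 CPM in Yap1 knockouts and at 8.19 and 1.89 CPM in Yap controls. Both knockouts exceeded both controls, and Yap control 2 was the lowest (log2 fold change 2.37, SE 0.666, adjusted p = 0.219). The log2 fold change was 3.77 against Yap control 2 alone and 1.69 against Yap control 1 alone. Cxcl3, a neighbouring neutrophil chemokine, stood at 14.3 and 11.6 CPM in Yap1 knockouts and at 5.03 and 0.412 CPM in Yap controls. The groups did not overlap, and the controls differed more between themselves than the knockouts did (log2 fold change 2.22, SE 0.849, adjusted p = 0.325). The log2 fold change of Cxcl3 was 4.93 against Yap control 2 alone and 1.36 against Yap control 1 alone.

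Cxcl5, a neutrophil chemokine of epithelial cells, was low throughout, at 1.09 and 0.519 CPM in Yap1 knockouts and 0.277 and 0.412 CPM in Yap controls (log2 fold change 1.23, adjusted p = 0.405). The libraries did not overlap, and 33 and 15 counts lay behind the knockout values. Cxcl1, known as KC, did not share this pattern, at 23.5 and 18.9 CPM in Yap1 knockouts and 30.0 and 20.6 CPM in Yap controls. Its groups overlapped, with a log2 fold change of -0.26 (SE 0.366). Per kb it averaged 11.3 CPM in Yap1 knockouts, below Ppbp (19.3) and Cxcl2 (12.8). The 5 tested ligands of the neutrophil class had a median log2 fold change of 2.22, with 4 of them above 0.

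Ppbp encodes the platelet precursor that is cut to the neutrophil-activating peptide NAP-2, a ligand of Cxcr2. It stood at 22.4 and 19.3 CPM in Yap1 knockouts and at 5.59 and 2.18 CPM in Yap controls. The groups lay far apart relative to their own spread (log2 fold change 2.41, SE 0.441), and its adjusted p of 0.112 was the smallest of any member. Pf4, the platelet chemokine CXCL4, which does not draw neutrophils through Cxcr2, stood at 24.5 and 47.1 CPM in Yap1 knockouts and 19.2 and 17.1 CPM in Yap controls. Knockouts and controls did not overlap, and the knockouts differed from each other by more than the controls did (log2 fold change 0.98, SE 0.333, adjusted p = 0.281).

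The receptors of these ligands stood higher too. Cxcr2 stood at 51.6 and 28.7 CPM in Yap1 knockouts and at 12.2 and 8.40 CPM in Yap controls. Both knockouts were above both controls (log2 fold change 1.96, SE 0.475, adjusted p = 0.178). Cxcr1, its neighbour on chromosome 1 and another neutrophil receptor, stood at 1.18 and 0.519 CPM in Yap1 knockouts and 0.111 and 0.0823 CPM in Yap controls. No control reached the knockouts, with 36 and 15 counts in the knockouts against control counts of 4 and 2 (log2 fold change 3.07, SE 0.673, adjusted p = 0.153). Of all groups, only the Yap1 knockouts reached the filter's 10 counts in both libraries. Cxcr1 was thus tested only through the group where it was high. DESeq2 gave an adjusted p of 0.0028 for Cxcr2 and none for Cxcr1, which its own filter set aside.

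Summed markers of neutrophils and platelets were also higher in both knockouts. The summed level of 15 neutrophil marker genes, Lcn2 left out because hepatocytes also make it, was 1069 and 548 CPM in Yap1 knockouts and 169 and 297 CPM in Yap controls. Of the 16 listed neutrophil genes 9 were higher at an unadjusted p under 0.05, where 6.64% of all genes tested were, and 0 passed the adjusted threshold. Their median log2 fold change was 1.81. The 5 platelet markers other than Pf4 and Ppbp summed to 31.5 and 15.6 CPM in Yap1 knockouts and 7.44 and 11.8 CPM in Yap controls. All 5 were higher at an unadjusted p under 0.05, against the same 6.64% of genes. Erythroid genes, which reflect blood in the sample, summed to 467 and 403 CPM in Yap1 knockouts and 123 and 229 CPM in Yap controls. Both knockouts exceeded both controls for each of these sums, and no gene of these lists was at 0 in all libraries. In bulk tissue more cells of a type and more RNA per cell cannot be told apart, and the part of these cell types in the chemokine levels was not tested.

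**Figure D2:**
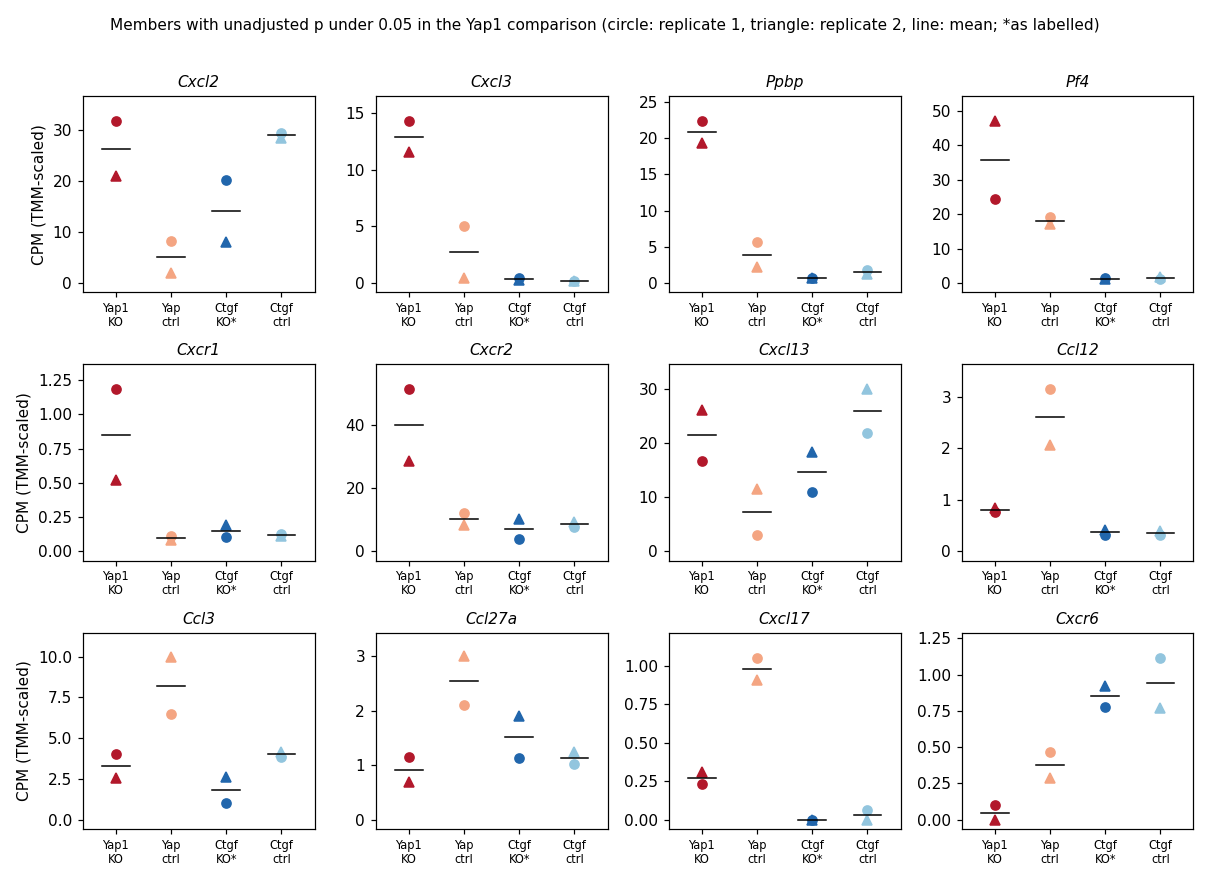
CPM of the 12 members with an unadjusted p under 0.05 in the Yap1 comparison, by library (circle for replicate 1, triangle for replicate 2), with a line at each group's mean. Yap1 knockouts lie above Yap controls for Cxcl2, Cxcl3, Ppbp, Pf4, Cxcr1, Cxcr2 and Cxcl13 and below them for Ccl12, Ccl3, Ccl27a, Cxcl17 and Cxcr6, and the axes differ between panels.

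Among the other CXC ligands, Cxcl13, which draws B cells through Cxcr5, stood at 16.7 and 26.2 CPM in Yap1 knockouts and at 3.04 and 11.5 CPM in Yap controls. Knockouts and controls did not overlap (log2 fold change 1.57, SE 0.581, adjusted p = 0.317), and the log2 fold change was 0.86 against Yap control 2 alone and 2.81 against Yap control 1 alone. Its receptor Cxcr5 stood at 0.230 and 0.138 CPM in Yap1 knockouts and 0.332 and 0.123 CPM in Yap controls, with overlapping groups. Cxcl12 stood at 255 and 282 CPM in Yap1 knockouts and 269 and 169 CPM in Yap controls, and its receptor Cxcr4 at 15.2 and 12.0 CPM in Yap1 knockouts and 11.5 and 4.65 CPM in Yap controls. For the ligand the groups overlapped, and for the receptor they did not, with log2 fold changes of 0.29 and 0.75. Cxcl14, which draws monocytes and dendritic cells, overlapped between the groups at 34.4 and 72.5 CPM in Yap1 knockouts and 28.7 and 50.3 CPM in Yap controls.

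Cxcl17, a chemokine of mucosal surfaces, stood at 0.230 and 0.311 CPM in Yap1 knockouts and at 1.051 and 0.906 CPM in Yap controls. Both knockouts lay under both controls, with 7 and 9 counts in the knockouts against control counts of 38 and 22 (log2 fold change -1.84, SE 0.684, adjusted p = 0.325). Of all groups, only the Yap controls reached the filter's 10 counts in both libraries, so Cxcl17 was tested only through the group where it was high. Cxcl16, the ligand of Cxcr6, stood below control in both knockouts (log2 fold change -0.54, adjusted p = 0.442), but 552 exon bases of it overlap Zmynd15 on the opposite strand, which makes its count uncertain. Cxcr6, found on T and NKT cells that patrol the sinusoids, had 3 counts in the Yap1 knockouts together and 24 in the Yap controls. The corresponding levels were 0.0987 and 0 CPM in Yap1 knockouts and 0.470 and 0.288 CPM in Yap controls. The ratio of summed counts was 7.84-fold lower in the knockouts (95% exact counting interval 2.38 to 40.7-fold), and edgeR gave an adjusted p of 0.261.

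All 3 interferon-induced ligands had log2 fold changes below 0, with no p under 0.05. Cxcl9, induced by interferon gamma, stood at 0.955 and 1.21 CPM in Yap1 knockouts and 4.89 and 2.22 CPM in Yap controls, with no overlap (log2 fold change -1.73). Cxcl10 stood at 14.02 and 43.4 CPM in Yap1 knockouts and 11.1 and 95.5 CPM in Yap controls. Here replicate 2 was the higher one in both groups and the groups overlapped. Cxcl11, annotated as a polymorphic pseudogene, was below 1 CPM in all 4 libraries. Their receptor Cxcr3 was low, at 0.220 CPM on average in Yap1 knockouts and 0.345 CPM in Yap controls. Counts of Cxcl10 and Cxcl11 are uncertain because exons of Art3 and of a pseudogene overlap them on the opposite strand.

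Of the 12 CC ligands classed as inflammatory 10 were tested, 8 of these had log2 fold changes below 0, and their median was -0.85. Ccl12, a mouse monocyte chemokine also called MCP-5, stood at 0.757 and 0.831 CPM in Yap1 knockouts and at 3.15 and 2.06 CPM in Yap controls. Its groups did not overlap and its log2 fold change was the lowest of the class (log2 fold change -1.71, SE 0.424, adjusted p = 0.186). Ccl3, a ligand of Ccr1 made by macrophages, stood at 4.05 and 2.53 CPM in Yap1 knockouts and 6.47 and 9.96 CPM in Yap controls. Both knockouts lay below both controls (log2 fold change -1.32, SE 0.484, adjusted p = 0.313), and the log2 fold change was -1.63 against Yap control 2 alone and -0.97 against Yap control 1 alone.

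Ccl2, the main ligand of Ccr2, stood at 45.7 and 30.4 CPM in Yap1 knockouts and 58.0 and 54.3 CPM in Yap controls. Ccl7, its neighbour and also a Ccr2 ligand, stood at 18.3 and 12.7 CPM in Yap1 knockouts and 30.8 and 44.2 CPM in Yap controls. For both the knockouts lay below the controls without overlap, with log2 fold changes of -0.56 and -1.27 and adjusted p of 0.597 and 0.365. Ccl4, close kin of Ccl3, and Ccl24, a ligand of Ccr3 on eosinophils, were lower in both knockouts as well (log2 fold changes -1.35 and -1.14). Ccl5, a chemokine of T cells, went the other way on average with overlapping groups, at 4.67 and 20.6 CPM in Yap1 knockouts and 4.48 and 9.96 CPM in Yap controls. The abundant Ccl6 and Ccl9 had log2 fold changes near 0. Ccl6 stood at 264 and 251 CPM in Yap1 knockouts and 251 and 326 CPM in Yap controls. Ccl9 stood at 163 and 159 CPM in Yap1 knockouts and 145 and 159 CPM in Yap controls, with log2 fold changes of -0.16 (SE 0.366) for Ccl6 and 0.09 (SE 0.290) for Ccl9.

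No tested receptor of the CC class lay below control in both knockouts. Ccr1 stood at 65.6 and 49.5 CPM in Yap1 knockouts and at 36.6 and 23.9 CPM in Yap controls. Both knockouts were above both controls (log2 fold change 0.93, SE 0.416, adjusted p = 0.376), and neutrophils and monocytes both carry this receptor. Ccr2, the receptor of inflammatory monocytes, stood at 49.0 and 28.9 CPM in Yap1 knockouts and 49.4 and 14.6 CPM in Yap controls. The controls spanned the knockouts, with Yap control 2 the lowest library. The summed level of 13 monocyte and macrophage markers was 1834 and 1523 CPM in Yap1 knockouts and 1428 and 2820 CPM in Yap controls, also overlapping, and that of 10 Kupffer cell markers was 940 and 1124 CPM in Yap1 knockouts and 982 and 1314 CPM in Yap controls.

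Of the remaining CC ligands, Ccl27a, which draws T cells through Ccr10, stood at 1.15 and 0.692 CPM in Yap1 knockouts and at 2.10 and 3.005 CPM in Yap controls. The groups did not overlap (log2 fold change -1.46, SE 0.463, adjusted p = 0.260), and 8 exon bases shared with Il11ra1 on the other strand leave its count uncertain. Ccl25 and Ccl28 overlapped and Ccl22 did not, with a mean of 0.249 against 0.862 CPM for Ccl22, 7.62 against 8.18 CPM for Ccl25 and 0.439 against 0.783 CPM for Ccl28 in Yap1 knockouts against Yap controls. Ccr3, Ccr7 and Ccr9 averaged 0.745, 0.550 and 0.546 CPM in Yap1 knockouts and 0.919, 0.827 and 0.662 CPM in Yap controls, with overlapping libraries. Ccr3 had 65 counts in Yap control 1 and 1 in Yap control 2, and its log2 fold change was 4.02 against Yap control 2 alone and -0.35 against both.

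Cx3cl1, the membrane-bound fractalkine, stood at 2.53 and 3.29 CPM in Yap1 knockouts and 2.52 and 2.92 CPM in Yap controls, and its receptor Cx3cr1, found on monocytes and some macrophages, at 3.65 and 2.87 CPM in Yap1 knockouts and 6.78 and 1.81 CPM in Yap controls. Both overlapped, with log2 fold changes of 0.10 and -0.41. Of the genes below the filter, Xcr1, the receptor of cross-presenting dendritic cells, had 0 counts in the Yap1 knockouts and 13 in the Yap controls. A floor of 3 counts over the knockouts gives a 4.25-fold lower level, and the 95% exact counting interval of the ratio allows a level as little as 2.99-fold lower. Its ligand Xcl1, made by NK and T cells, had 0 counts in the Yap1 knockouts against 6 in the Yap controls, which is 1.96-fold lower by the same floor and as little as 1.15-fold lower by the interval. Neither was tested, and the intervals cover counting error only.

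The second comparison asked the same of Ctgf. For 30 of the 42 tested members the libraries labelled Ctgf knockout overlapped with the Ctgf controls, and 0 of the 42 members passed by edgeR's quasi-likelihood test, where 0 of 13999 genes did (0%). DESeq2 and limma-voom also called 0 members, where they called 0.0227% and 0.00714% of genes. At an unadjusted p under 0.05 there were 2 members (4.76%, against 1.98% of genes), Cxcr5 and Ppbp, both lower. For Cxcr5 only the Ctgf controls had at least 10 counts in both libraries of a group. It thus entered the test through the reference group where it was high, and its part in this share depends on the filter. The libraries labelled Ctgf knockout lay above both Ctgf controls for 1 member, Cxcl3 (2.38%, against 15.5% of genes), and below both for 11 (26.2%, against 16.8%). The median log2 fold change was -0.21 over the 41 members with more than 3 counts in a group, against 0.01 over all genes. Cxcl17 was left out of it, with 0 counts in the libraries labelled Ctgf knockout and 2 in Ctgf controls.

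Cxcr5 stood at 0.0355 and 0.191 CPM in the libraries labelled Ctgf knockout and at 0.414 and 0.796 CPM in Ctgf controls. The groups did not overlap, on 1 and 6 counts against 13 and 28 (log2 fold change -2.35, SE 0.822, adjusted p = 1), and exons of Bcl9l overlap this gene on the opposite strand. The 8 B and plasma cell markers summed to 10.9 and 12.8 CPM in the libraries labelled Ctgf knockout and 15.3 and 21.1 CPM in Ctgf controls, and their part in this value was not tested. Ppbp stood at 0.674 and 0.636 CPM in the libraries labelled Ctgf knockout and at 1.75 and 1.19 CPM in Ctgf controls. Its groups did not overlap (log2 fold change -1.16, SE 0.487, adjusted p = 1).

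Cxcl2 stood at 20.3 and 8.05 CPM in the libraries labelled Ctgf knockout and at 29.5 and 28.5 CPM in Ctgf controls. Both were below both controls, with the library labelled Ctgf knockout 2 the lower one (log2 fold change -1.04, SE 0.635). Cxcl3 was low in this line, at 0.390 and 0.223 CPM in the libraries labelled Ctgf knockout and 0.191 and 0.142 CPM in Ctgf controls, and Cxcl5 at 0.177 and 0.127 CPM in the libraries labelled Ctgf knockout and 0.319 and 0.142 CPM in Ctgf controls. Pf4 stood at 1.35 and 1.11 CPM in the libraries labelled Ctgf knockout and 1.27 and 1.79 CPM in Ctgf controls, with overlap. Cxcr2 stood at 4.04 and 10.4 CPM in the libraries labelled Ctgf knockout and 7.75 and 9.44 CPM in Ctgf controls, and Cxcr1 at 0.106 and 0.191 CPM against 0.128 and 0.114 CPM in Ctgf controls. For both receptors the controls lay between the labelled knockouts. The neutrophil markers without Lcn2 summed to 84.2 and 160.0 CPM in the libraries labelled Ctgf knockout and 204 and 235 CPM in Ctgf controls.

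Many inflammatory members parted the libraries labelled Ctgf knockout from each other. Ccl2 stood at 4.22 and 14.98 CPM in the libraries labelled Ctgf knockout 1 and 2, against 17.1 and 14.5 CPM in Ctgf controls. Ccl7 stood at 1.63 and 6.996 CPM in the libraries labelled Ctgf knockout and 6.34 and 7.05 CPM in Ctgf controls. In both cases only Ctgf knockout 1 was low and the second library lay among the controls. Ccl3 stood at 0.993 and 2.64 CPM in the libraries labelled Ctgf knockout and 3.86 and 4.18 CPM in Ctgf controls, and Ccr2 at 4.72 and 14.3 CPM in the libraries labelled Ctgf knockout and 17.7 and 18.6 CPM in Ctgf controls. Both genes were below control in both libraries. Ccr1 stood at 3.16 and 8.17 CPM in the libraries labelled Ctgf knockout against 8.35 and 9.16 CPM in Ctgf controls, and Cx3cr1 at 0.780 and 3.498 CPM against 3.89 and 4.55 CPM in Ctgf controls. For both of these receptors too the library labelled Ctgf knockout 1 was the lowest. The monocyte and macrophage markers summed to 406 and 706 CPM in the libraries labelled Ctgf knockout and 844 and 842 CPM in Ctgf controls, and their part was not tested.

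Cxcl9 went against this, at 3.48 and 41.6 CPM in the libraries labelled Ctgf knockout and 9.56 and 7.79 CPM in Ctgf controls. The library labelled Ctgf knockout 2 was the highest of all 8 libraries for this gene, and Ctgf knockout 1 was under both controls. Cxcl10 stood at 10.0 and 20.6 CPM in the libraries labelled Ctgf knockout and 19.6 and 15.5 CPM in Ctgf controls, and Ccl5 at 10.9 and 7.03 CPM in the libraries labelled Ctgf knockout and 11.2 and 10.3 CPM in Ctgf controls. Cxcl12 stood at 348 and 232 CPM in the libraries labelled Ctgf knockout and 257 and 229.8 CPM in Ctgf controls, and Cxcr4 at 3.69 and 8.49 CPM against 6.95 and 7.51 CPM in Ctgf controls. The groups overlapped for all 4 of these genes. Cx3cl1 was lower in both libraries labelled Ctgf knockout, at 0.993 and 1.18 CPM, against 1.18 and 1.82 CPM in Ctgf controls, and the nearest libraries almost touched (log2 fold change -0.47, SE 0.387).

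**Figure D3:**
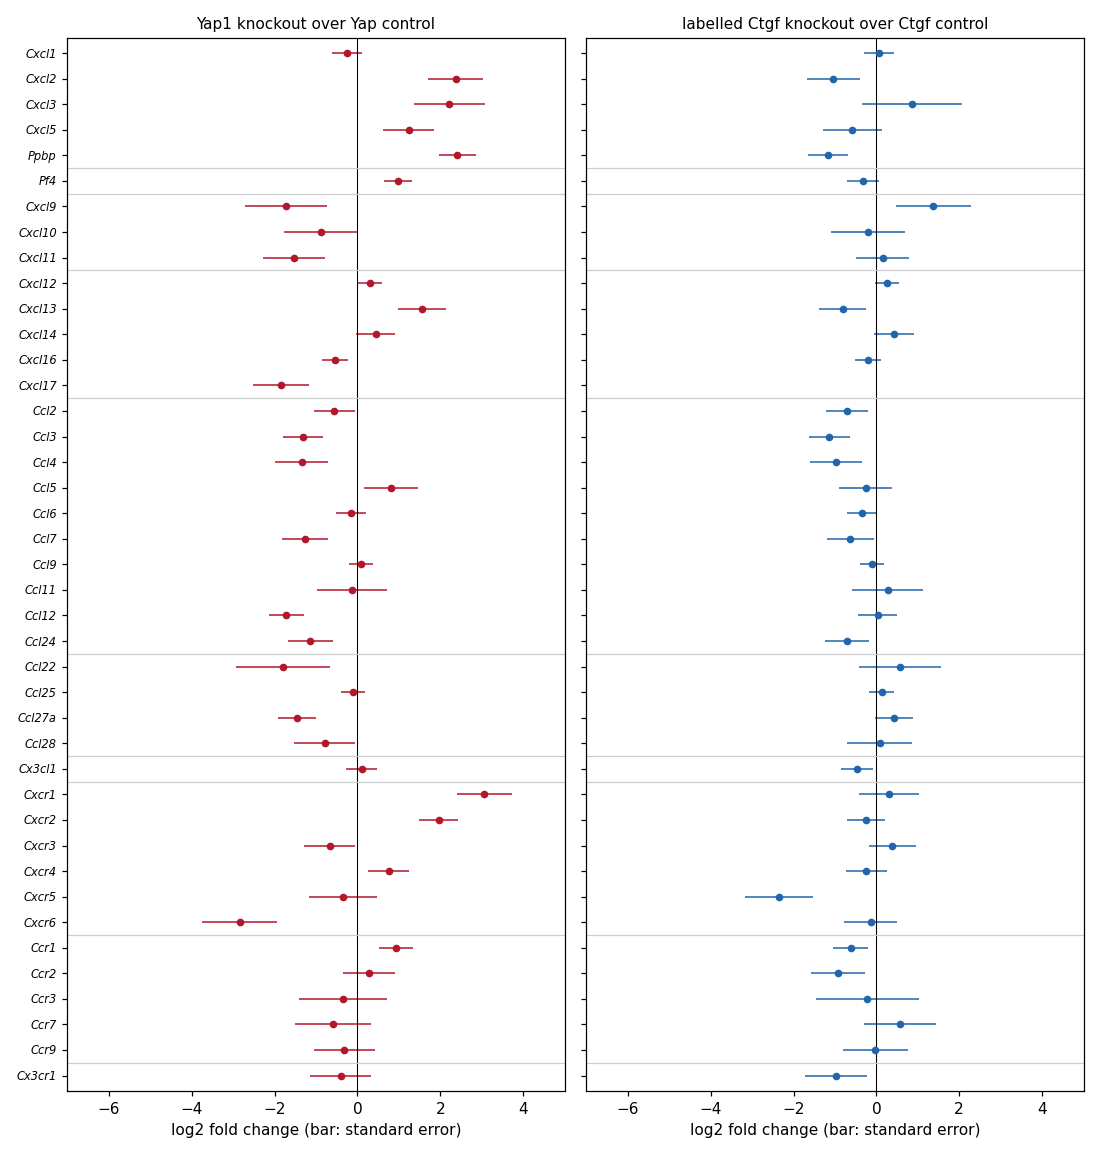
Log2 fold change with its standard error for tested members, in Yap1 knockout over Yap control (left) and in labelled Ctgf knockout over Ctgf control (right, without Cxcl17). Cxcl2, Cxcl3, Ppbp, Cxcr1 and Cxcr2 lie to the right on the left side, and Cxcr5 lies furthest to the left on the right side, while no member passed an adjusted p under 0.05 in either comparison.

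The difference between the effects of both knockouts was tested in the same fit. In it 0 of the 42 members passed by edgeR's quasi-likelihood test, where 0 of 13999 genes did (0%). At an unadjusted p under 0.05 there were 11 members (26.2%, against 8.87% of genes). The Yap1 effect was the higher one for Ppbp, Cxcl2, Cxcr2, Cxcr1, Cxcl13, Pf4 and Ccr1, and the lower one for Ccl12, Ccl27a, Cxcr6 and Cxcl9. Cxcr1 had passed the low-count filter only through the Yap1 knockouts. The log2 difference was 3.58 (SE 0.653) for Ppbp, 3.41 (SE 0.917) for Cxcl2 and 2.21 (SE 0.662) for Cxcr2, with adjusted p of 0.284, 0.453 and 0.483. DESeq2 called Cxcl2 and Ppbp, where it called 0.942% of genes, and limma-voom called no member. For Cxcl9 the log2 difference was -3.10 (SE 1.34), with 1 library, labelled Ctgf knockout 2, far above the others. Since that library goes against its label, the difference was also taken without it and without Yap control 2, when Ccr1, Cxcl13 and Ppbp passed and 143 of 14261 genes (1%) did.

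The lines themselves lay apart, and the comparison of their controls held the only members past the threshold. Yap control livers held more Pf4, Ccl9, Ccl12 and Cxcl17 than Ctgf control livers, with 4 of 42 members called (9.52%), all higher, against 2.38% of all genes tested in either direction. Cxcl17 passed the low-count filter only through the Yap controls, where it was high. Its call and its part in this share therefore depend on that filter. The controls of both lines differ in the floxed gene, in the GFP virus named for 1 of them and possibly in batch or library kit, which cannot be told apart. They are also the libraries against which the knockouts were set. At an unadjusted p under 0.05 there were 12 members higher (28.6%, against 12.2% of genes) and 3 lower (7.14%, against 10.4%). Both Yap controls lay above both Ctgf controls for 17 members (40.5%, against 26.1%) and below them for 9 (21.4%, against 27%). With 1 Ctgf control left out, whichever it was, 0 members and 0 genes passed, with 1 Yap1 knockout left out Pf4 alone passed, and in a fit of these 4 libraries alone 0 passed, so the calls rest on the spread shared with other groups. Ccl9 and Cxcl17 also lost their call with the replicate block (adjusted p = 0.0511 and 0.0708), and Cxcl17 without the low-count filter (adjusted p = 0.0564) and with either library labelled Ctgf knockout left out (adjusted p = 0.0564 and 0.0568). DESeq2 called 14 members, 11 higher and 3 lower, where it called 9.11% of genes.

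Pf4 stood at 19.2 and 17.1 CPM in Yap controls and at 1.27 and 1.79 CPM in Ctgf controls. The gap between the groups was wide next to the spread in either, and the difference was 11.8-fold (log2 fold change 3.56, SE 0.377, adjusted p = 0.0210). The 5 other platelet markers summed to 7.44 and 11.8 CPM in Yap controls and 5.96 and 6.77 CPM in Ctgf controls, and so lay closer together than Pf4 did. Ccl9 stood at 145 and 159 CPM in Yap controls and 52.3 and 46.3 CPM in Ctgf controls (log2 fold change 1.62, SE 0.298, adjusted p = 0.0429). Ccl12 stood at 3.15 and 2.06 CPM in Yap controls and 0.319 and 0.398 CPM in Ctgf controls (log2 fold change 2.85, SE 0.451, adjusted p = 0.0332). Neither gene had overlapping groups. Cxcl17 had 60 counts in the Yap controls and 2 in the Ctgf controls, a ratio of 33.0 (95% exact counting interval 8.75 to 278.9, edgeR adjusted p = 0.0493).

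Other macrophage and monocyte chemokines were higher in the Yap controls without passing. Ccl6 stood at 251 and 326 CPM in Yap controls and 73.1 and 100.3 CPM in Ctgf controls (log2 fold change 1.74, adjusted p = 0.0587). Ccl7, at 30.8 and 44.2 CPM in Yap controls against 6.34 and 7.05 CPM in Ctgf controls, and Ccl2, at 58.0 and 54.3 CPM in Yap controls against 17.1 and 14.5 CPM in Ctgf controls, had log2 fold changes of 2.48 and 1.83. None of these groups overlapped. Ccr1 stood at 36.6 and 23.9 CPM in Yap controls and 8.35 and 9.16 CPM in Ctgf controls (log2 fold change 1.79, adjusted p = 0.0715). Cxcl14, at 28.7 and 50.3 CPM in Yap controls against 16.2 and 11.1 CPM in Ctgf controls, Ccl27a and Ppbp were higher too (log2 fold changes 1.53, 1.16 and 1.41).

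The cell type markers differed in direction. The monocyte and macrophage markers summed to 1428 and 2820 CPM in Yap controls and 844 and 842 CPM in Ctgf controls. Of these 13 genes 2 (Gpnmb and Fcgr1) were called higher, where 1.27% of all genes tested were. Of the 11 stellate cell and fibroblast genes 5 (Des, Acta2, Col1a1, Col1a2 and Col3a1) were called higher, against the same 1.27% of genes. The sum of the 11 was 1402 and 1079 CPM in Yap controls and 533 and 533 CPM in Ctgf controls. Kupffer cell markers summed to 982 and 1314 CPM in Yap controls and 735 and 1152 CPM in Ctgf controls, with overlap and 0 of 10 called. Of the T and NK cell genes 0 of 12 had a log2 fold change above 0 (median -0.58), and of the B and plasma cell genes 2 of 8 (median -1.05), with none called. The medians were -0.16 for the neutrophil genes, of which Camp was called lower, -0.49 for the mesothelial genes and 2.11 for the biliary genes, of which Sox9 was called lower. The biliary genes summed to 376 and 1478 CPM in Yap controls 1 and 2 and to 373 and 311 CPM in Ctgf controls. Only Yap control 2, with its pancreatic transcripts, lay far above in this sum. Both Yap controls lay above both Ctgf controls for 4 of the 7 biliary genes and below them for 1. The part of these cells in the chemokine levels was not tested.

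A few members ran the other way, with Yap controls below Ctgf controls. Cxcl1 stood at 30.0 and 20.6 CPM in Yap controls and 108 and 54.5 CPM in Ctgf controls. Cxcl2 stood at 8.19 and 1.89 CPM in Yap controls and 29.5 and 28.5 CPM in Ctgf controls. Cxcl13 stood at 3.04 and 11.5 CPM in Yap controls and 21.8 and 30.0 CPM in Ctgf controls. The groups did not overlap for any of them (log2 fold changes -1.68, -2.51 and -1.84, adjusted p of 0.0607, 0.0911 and 0.127). Cxcl3 differed from its neighbours Cxcl1 and Cxcl2, at 5.03 and 0.412 CPM in Yap controls and 0.191 and 0.142 CPM in Ctgf controls (log2 fold change 4.03, SE 1.06, adjusted p = 0.0871). Cxcl2, at 31.9 and 20.9 CPM in Yap1 knockouts, thus spanned the level of the Ctgf controls, whereas Cxcl3, at 14.3 and 11.6 CPM, lay above every other library.

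**Figure D4:**
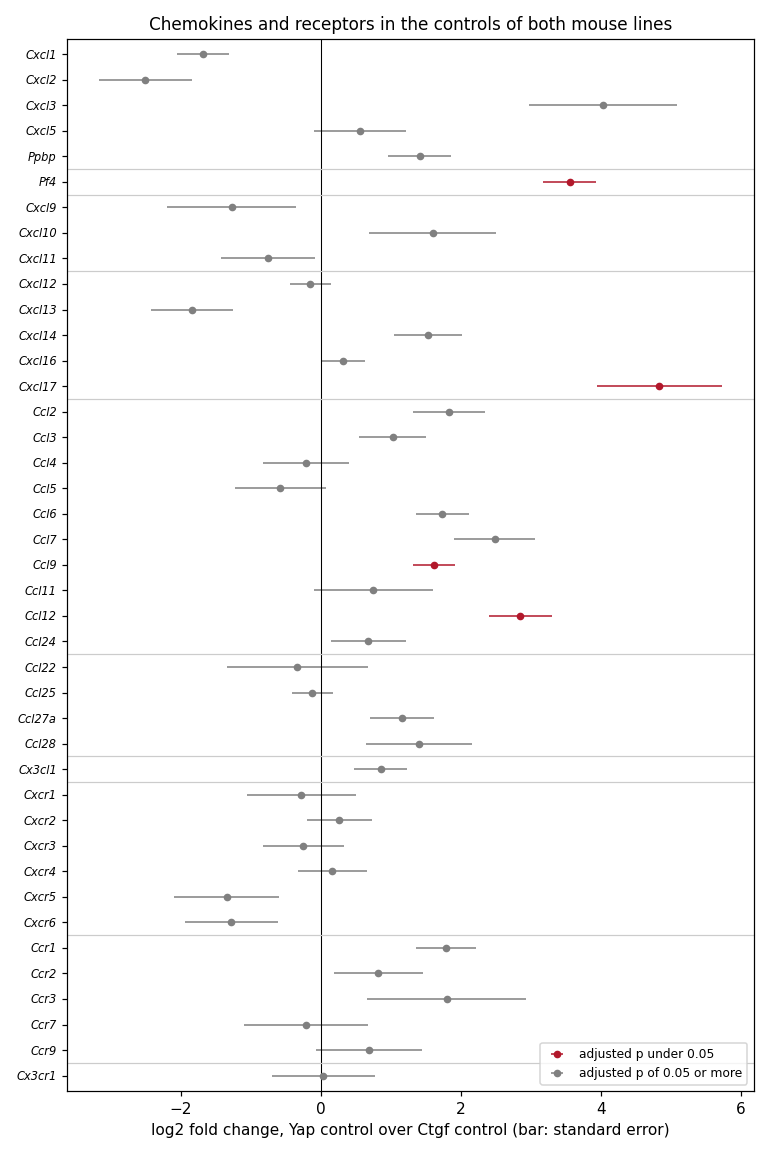
Log2 fold change with its standard error for tested members, Yap control over Ctgf control. Red points are the 4 members with an adjusted p under 0.05 (Pf4, Ccl9, Ccl12 and Cxcl17), and grey points other members. The point of Cxcl17 is a fitted value that rests on 2 counts in the Ctgf controls.

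Read by genome position, 36 of the 58 members with a position lay in groups of at least 3 members. The 6 tested genes of the chromosome 5 cluster were not alike across comparisons. Cxcl2, Cxcl3, Cxcl5, Ppbp and Pf4 lay above control in both Yap1 knockouts and Cxcl1 did not. The second chromosome 5 group (chr5:92321347-92365485) holds Cxcl9, Cxcl10 and Cxcl11, all with log2 fold changes below 0 in Yap1 knockouts. On chromosome 11, the monocyte chemokine group (chr11:82035571-82305690) holds Ccl2, Ccl7, Ccl11, Ccl12, Ccl8 and Ccl1, and its tested members Ccl2, Ccl7 and Ccl12 lay below control in both Yap1 knockouts, with Ccl11 overlapping. The macrophage chemokine group (chr11:83525778-83664683) holds Ccl5, Ccl9, Ccl6, Ccl3 and Ccl4, of which Ccl3 and Ccl4 lay below control and the abundant Ccl6 and Ccl9 had log2 fold changes near 0. A receptor group on chromosome 9 includes Ccr9, Cxcr6, Xcr1, Ccr1, Ccr3 and Ccr2. There Ccr1 stood above control in both Yap1 knockouts and Cxcr6 below it, and the groups overlapped for Ccr9, Ccr3 and Ccr2.

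Genes that act with chemokines were read from 5 pathway lists, and in the Yap1 comparison 0 of their genes passed by edgeR's quasi-likelihood test. Of the 10 tested atypical and related receptors 2 were higher and 1 lower at an unadjusted p under 0.05, where 6.64% of all genes were higher and 7.14% lower. The scavenging receptors Ackr3 and Ackr2 had log2 fold changes of 0.82 and 0.76, and Ackr1, which carries chemokines across venules, -2.16. Of 26 genes of receptor signalling 3 were higher and 0 lower, against the same 6.64% and 7.14% of all genes. The 3 were Rgs2 and Rgs1, which shorten G protein signals, and the receptor kinase Grk3, with log2 fold changes of 1.62, 1.21 and 0.91. Both knockouts lay above both controls for 11 of the 26 genes and below them for 1, against 23.6% and 20.8% of all genes. Of 12 genes of chemokine presentation and trimming 3 were higher. These were the neutrophil proteases Mmp8 and Mmp9 and the heparan sulfate proteoglycan Sdc1, with log2 fold changes of 2.47, 1.72 and 1.22.

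Of 16 tested proinflammatory inducers of chemokines, cytokines and NF-kB pathway genes, 0 had an unadjusted p under 0.05 in the Yap1 comparison and their median log2 fold change was -0.00. The smallest p belonged to Tnfaip3, an NF-kB-induced inhibitor (log2 fold change 0.64), Nfkb2 (-0.41) and Il1a (-0.68). Of 9 tested genes of interferon induction, likewise 0 had an unadjusted p under 0.05, with a median of 0.09. Irf1, an interferon-induced transcription factor, and the receptor subunit Ifnar1 had log2 fold changes of -0.56 and 0.35. In the Ctgf comparison 5 of the 16 proinflammatory inducers were lower at an unadjusted p under 0.05 (against 1.32% of all genes), Tnfaip3 and Il1a among them (log2 fold changes -0.98 and -1.01, adjusted p = 1 for each). Of the 15 cell type marker lists, 1 gene passed in the Yap1 comparison, Cd28 of the T and NK cell list, at 25.5 and 16.9 CPM in Yap1 knockouts and 0.525 and 0.823 CPM in Yap controls, while the other T and NK cell genes had log2 fold changes below 0 in 10 of 11 cases.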

How the data were processed

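Whole-number read counts per gene symbol were deposited for 8 libraries, and every column was used. They were made with HTSeq 0.6.1, STAR 2.6.0a and bcl2fastq 2.20.0.422 on mm10 (GRCm38), per the submitters' processing notes. The sources used here give no annotation, strand setting or read filter, so counts of genes that overlap on opposite strands are uncertain. Per the labels' protocols a TruSeq and a KAPA kit were used, with no record of which library had which.

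Counts were tested with edgeR 4.0.16 in R 4.3.3 (quasi-likelihood F test, TMM scaling, edgeR's expression filter with a minimum count of 10, Benjamini-Hochberg adjustment over 13999 genes, threshold 0.05). A single fit of the 4 groups left 4 residual degrees of freedom, with a biological coefficient of variation of 27.2%. It was also run on simulated counts with a single spread for all genes and libraries, unlike these data, and no result here rests on that run. Log2 fold changes are knockout over control, or Yap control over Ctgf control, and SE is their standard error. The floor for a group at 0 was 3 counts over its 2 libraries together, and intervals and floors cover counting error only. In a single library 3 counts make 0.0830 to 0.123 CPM. Members and gene lists were chosen with earlier results of these data known. Values of every library are printed for members with an unadjusted p under 0.05 in any comparison and for chemokines and receptors chosen for their known roles, and others as means, counts or ranges. Of each pathway list, the 3 genes with the smallest p in the Yap1 comparison are named. A member and a gene of a pathway list that these rules name are not reported here, though they remain in the fits and counts. Cell type markers are given as summed levels, with genes past the threshold. Positions and exon lengths came from the GENCODE annotation of GRCm38 and upstream sequences from RefSeq (GRCm38.p6). The motif searched there was shortened by 1 base after a first search, and the counts of both forms are given. Alternatives were RLE and upper-quartile scaling, DESeq2 1.42.0, limma-voom (limma 3.58.1), no filter, a filter of 1 CPM in 2 libraries, a replicate block, fits of the compared libraries alone and fits with libraries left out.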

Additional observations from a re-analysis of the deposited data

How the results depend on the processing

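The count of members past the threshold depended on the libraries and the tool. In the Yap1 comparison it was 0, 3 with DESeq2 and between 0 and 7 with 1 library left out. Without both Yap control 2 and the library labelled Ctgf knockout 2 it was 6 (Ccl12, Cxcl13, Cxcl2, Cxcl3, Cxcl9 and Ppbp). In the difference between the knockout effects it was 0, and 2 with DESeq2, where 0.942% of genes passed. In Yap control against Ctgf control it was 4, 14 with DESeq2, 0 in a fit of the compared libraries alone, between 0 and 11 with 1 library left out and 16 without both. In that comparison it was 11 without Yap control 1, 8 without Yap control 2 and 7 with either library labelled Ctgf knockout left out. Without 1 library a group has a lone sample, assumed to vary like the other groups. In the difference and between the controls, leaving libraries out also moved the count of members. Wherever it raised that count, the share of all genes passing rose too. Between the controls the count of members and the share of genes were each highest without both Yap control 2 and the library labelled Ctgf knockout 2. Each was next highest without Yap control 1, and then without Yap control 2 alone. Those counts alone therefore do not set chemokines and their receptors apart from other genes. In the Yap1 comparison 2 members with overlapping libraries reversed. The log2 fold change of Ccr3, -0.35 with all libraries, was 0.94 with limma-voom and between -1.27 and 4.02 with libraries left out, and that of Ccl28, -0.79, was between -1.61 and 0.81 with libraries left out (0.81 without Yap control 2 and also without both libraries). No other log2 fold change followed through these alternatives reversed, those of members with an unadjusted p under 0.05 in a comparison and of a few others, and the counts of members with non-overlapping libraries stayed within 1.5 times their value. In the Ctgf comparison 0 members passed under every alternative run. Over all genes the Yap1 comparison called 4 genes, 558 with DESeq2, 37 without a filter and between 0 and 3728 with 1 library left out.

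The titles name each Yap control as the control for a numbered Yap1 knockout, and for Yap control 2 the number is that in the column of Yap1 knockout 2, with no word on what the match rests on. The deviations of same-numbered libraries correlated at 0.0704 in the Yap line, 0.0687 in the Ctgf line and -0.117 between the controls of both lines. Each group gives a single difference between replicates, and Yap control 2 stood apart from the other libraries. These values therefore cannot decide whether the libraries were paired. With the replicate block 0 members passed in the Yap1 and the Ctgf comparison and in their difference. Between the controls 4 passed (Ccl12, Ccl6, Cxcl2 and Pf4), where 1.56% of all genes did. With the numbers crossed, a setting chosen after seeing the data, 3 members passed there, where 1.71% of all genes did.

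Depth limits the members with few counts. Those below the filter, such as Xcr1 and Xcl1, rest on few counts, and a level of 0 there means only that fewer than 3 counts were seen in the libraries of the group.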
